A study of Mus musculus with 7 samples.

Results

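Transcription factors that set regional identity along the intestine were followed in duodenal RNA from mice with and without the nuclear receptor gene Ppara in the gut epithelium. The set holds 8 genes: Pdx1, Gata4, Gata6, Cdx1, Cdx2, Klf4, Klf5 and Elf3. They were chosen by symbol for this role and not for their values, though with earlier results of these data known. All 8 were among the 14795 genes of the deposited table, and all 8 were among the 13399 genes that passed the filter for testing, a value above 1 in at least 3 libraries. The controls were 3 Ppara lox/lox mice, which carry floxed Ppara and no Cre, and they were compared with 4 Ppara I-KO mice, which carry the same floxed alleles and Villin-Cre. Both groups were of the C57BL/6 strain, and the study's methods describe male mice on a high-fat diet (HFD) for 8 weeks with lox/lox littermates as controls, while the labels give neither diet nor age. According to the labels, food was withdrawn at midday on the day of sacrifice and returned in the evening, and the tissue was taken at midnight, whereas the study's methods describe a fast before sacrifice unless specified otherwise. The Villin promoter drives Cre in intestinal epithelium from development onwards, so muscle, stroma, vessels and leukocytes in the duodenum keep Ppara. Each library is labelled as a biological replicate.

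As background, the vertebrate gut tube is divided into regions by factors that are expressed in overlapping domains and are kept on in the adult epithelium. Cdx1 and Cdx2 are homeodomain proteins of the caudal family that specify intestine as opposed to stomach, and Cdx2 is needed throughout life to keep that state. Gata4 and Gata6 are zinc finger proteins; Gata4 is present in duodenum and jejunum and absent from distal ileum, and without it ileal genes appear in the proximal gut, while Gata6 is found along the whole length. Pdx1 is a homeodomain protein of the pancreas and of the proximal duodenum. Klf4 and Klf5 are Krüppel-like zinc finger proteins with opposed crypt and villus domains, Klf5 in dividing crypt cells and Klf4 in differentiated and goblet cells, and Elf3 is an epithelial ETS factor required for enterocyte maturation.

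In GRCm38, the assembly also called mm10, Pdx1 lies on chromosome 5 from 147269959 to 147275848 on the plus strand, and Cdx2 on the same chromosome from 147300805 to 147307270 on the minus strand. The gap between this pair, which belongs to the ParaHox cluster, is 24956 bases. Gata4 is on chromosome 14 from 63198922 to 63271692 and Klf5 on the same chromosome from 99298691 to 99315036. Klf4 is on chromosome 4 from 55527143 to 55532466, and Elf3 is on chromosome 1 from 135253575 to 135258568.

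Promoter windows of 300 bases, from 250 before to 50 after the RefSeq start (GRCm38.p6), were found for 4 of the 8 genes. Those of Cdx2, Klf4 and Pdx1 are shown because Cdx2 and Klf4 had the most similar profiles over the libraries, given further on, and because Pdx1 is the neighbour of Cdx2 and varied most between mice. Each is written 5′ to 3′ on the strand of its gene, and capitals mark matches to the searched motifs.
Cdx2, chr5:147307200-147307499, minus strand: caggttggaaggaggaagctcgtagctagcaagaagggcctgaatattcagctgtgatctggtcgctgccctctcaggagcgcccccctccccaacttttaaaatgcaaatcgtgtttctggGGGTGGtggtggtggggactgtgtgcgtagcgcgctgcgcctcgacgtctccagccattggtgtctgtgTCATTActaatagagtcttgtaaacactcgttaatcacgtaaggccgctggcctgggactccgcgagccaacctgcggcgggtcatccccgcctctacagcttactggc
Klf4, chr4:55532426-55532725, minus strand: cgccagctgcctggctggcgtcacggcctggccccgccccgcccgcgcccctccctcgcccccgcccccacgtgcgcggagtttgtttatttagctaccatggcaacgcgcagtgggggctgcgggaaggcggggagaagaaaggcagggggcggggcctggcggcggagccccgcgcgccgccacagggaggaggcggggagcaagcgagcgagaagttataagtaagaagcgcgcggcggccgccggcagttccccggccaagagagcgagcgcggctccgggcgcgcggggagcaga
Pdx1, chr5:147269847-147270146, plus strand: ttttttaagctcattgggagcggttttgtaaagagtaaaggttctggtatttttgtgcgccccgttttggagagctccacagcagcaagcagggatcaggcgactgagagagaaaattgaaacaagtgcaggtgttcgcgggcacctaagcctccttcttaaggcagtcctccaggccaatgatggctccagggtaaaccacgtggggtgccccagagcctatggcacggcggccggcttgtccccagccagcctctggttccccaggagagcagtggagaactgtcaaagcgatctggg
The GC content was 57.3% for Cdx2, 74.3% for Klf4, 55.3% for Pdx1 and 59.0% for Elf3, against a median of 52.67% over all 32851 windows of the same length. Core motifs of the factor families themselves were searched on both strands. The Krüppel-like factor core CCACCC, present in 31.5% of all windows, was found in the windows of Cdx2 (starting at position -128 from the transcript start) and Elf3 (at -7), in both on the strand opposite to the gene, so that it reads GGGTGG on the strand of the gene. The Pdx1 core TAATGA, present in 9.78% of all windows, was found in the windows of Cdx2 (at -59) and Elf3 (at -215), again opposite to the gene, and reads TCATTA on the strand of the gene. Neither core was found in the windows of Klf4 and Pdx1. Each was the only sequence searched for its family, so other forms of site were not covered. The GATA core AGATAA (11.2% of all windows), the CDX core TTTATG (11.9%) and the ETS core GGAAGT (23.8%) had no match in these 4 windows. The core AGGTCA bound by PPARα and other nuclear receptors, present in 16.3% of all windows, and the direct repeat of this core with 1 base between the copies, the DR1 element, present in 0.0396%, had no match in them either. Each copy within the repeat is that core. These are descriptions of the letters in short windows, and binding was not measured.

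Expression is given as the deposited normalized counts, read counts scaled by the authors to an adjusted library size (CPM). The libraries held 20741419 to 25885331 counted reads, and each of the 8 factors had between 331 and 13884 reads in each library. The largest error from counting alone was 5.50% of a value, for Pdx1 in lox/lox replicate 3, so the spread between mice and not depth limits these comparisons. Ppara itself had 53.4, 49.3 and 63.2 CPM in the 3 controls against 33.1, 40.6, 47.5 and 69.9 CPM in the libraries labelled I-KO, the last above every control (log2 fold change -0.25, standard error 0.22, limma adjusted p = 0.954). This total is no check of the deletion, as it takes in exons that are not floxed and cells that lack Cre. In libraries of whole tissue, fewer cells of a type and less RNA per cell cannot be told apart.

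None of the 8 factors differed between the genotypes beyond the spread between mice. By limma on log2(CPM + 1), with adjustment over all 13399 genes by the Benjamini-Hochberg method, 0 of 8 had an adjusted p under 0.05, where 0.0299% of all tested genes did (3 higher and 1 lower in I-KO). At an unadjusted p under 0.05 the count was again 0 of 8, against 4.74% of all genes, and 0 of 8 had groups that did not overlap, against 6.19% of all genes. In 5 of the factors the mean log2 value was higher in I-KO and in 3 it was lower, with a median log2 fold change of 0.08, where the median of all tested genes was 0.0017 and 50.6% were higher. The median of the 8 became 0.038 on leaving out lox/lox replicate 3, 0.040 on leaving out I-KO replicate 3 and 0.12 on leaving out lox/lox replicate 1, and 0.030 with libraries scaled to epithelial markers and 0.047 with column totals. The smallest adjusted p of the 8 was 0.954. With 3 against 4 mice an exact two-sided permutation test has 35 arrangements and can reach 0.0286, and the smallest value among the factors was 0.229, for Cdx2. These tests do not show that the factors were equal, so the interval of each difference is given with its values.

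**Figure D1:**
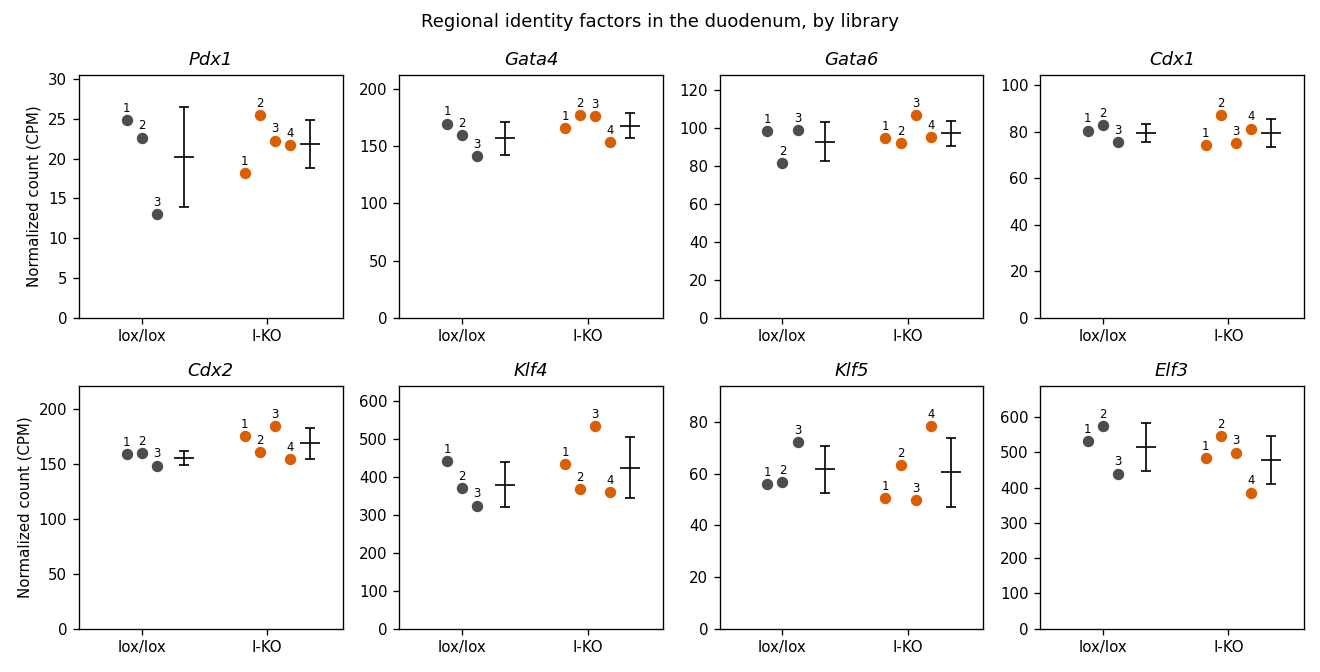
Normalized count (CPM, linear axis from 0) of each factor in each library, with numbers for the replicates and mean ± SD beside each group (lox/lox n = 3, I-KO n = 4). Groups overlap in all 8 panels, and Pdx1 in lox/lox replicate 3 (13.0 CPM) lies below the other 6 libraries (18.2 to 25.5 CPM).

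Pdx1, the duodenal and pancreatic homeodomain factor, was the lowest of the set. Values in the control mice, replicates 1 to 3, were 24.8, 22.7 and 13.0 CPM, and those in the I-KO mice, replicates 1 to 4, were 18.2, 25.5, 22.3 and 21.7 CPM. The groups overlapped over most of their range, and 1 control lay apart below all other mice. The means were 20.2 ± 6.30 CPM for the controls (SD, n = 3) and 21.9 ± 2.99 CPM for the I-KO mice (SD, n = 4). The log2 fold change was 0.15 (standard error 0.20, limma adjusted p = 0.969), with a 95% interval of the fold from 0.806 to 1.53. Its residual SD of 0.337 on the log2 scale was larger than that of 95.3% of tested genes, while 49.8% of genes had a lower mean. The 331 reads of lox/lox replicate 3 correspond to 11.6 to 14.5 CPM (95% Poisson interval, for counting error only), and the next lowest library, I-KO replicate 1 with 379 reads, to 16.4 to 20.1 CPM, so this gap exceeded counting error. Pancreatic tissue also expresses Pdx1. Of 3 islet markers 2 had no row in the table, and Iapp was at 0.27 to 0.54 CPM. The 11 acinar markers summed to 362 CPM in I-KO replicate 1 and 79.9 CPM in lox/lox replicate 2, against 19.0 to 34.6 CPM in the other 5 libraries. The marker Clps, at 16.2 to 32.1 CPM over the 7 libraries, made up most of the sum in those 5. I-KO replicate 1 had the second lowest Pdx1 value of the 7, and the part of pancreatic RNA in these values was not tested.

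Gata4, the proximal GATA factor, was expressed at 169.8, 159.9 and 141.2 CPM in the controls and at 165.6, 177.0, 176.1 and 153.7 CPM in the I-KO mice. The highest values were those of I-KO replicates 2 and 3 and the lowest that of lox/lox replicate 3. Means were 157 ± 14.5 CPM (n = 3) and 168.1 ± 10.9 CPM (n = 4), a log2 difference of 0.10 (standard error 0.095, limma adjusted p = 0.954) with a fold interval of 0.923 to 1.24. Gata6, which is present along the whole gut (chromosome 18, 11052064 to 11085635), had 98.3, 81.3 and 98.9 CPM in the controls against 94.5, 92.1, 106.6 and 95.1 CPM in I-KO mice. Only I-KO replicate 3 exceeded every control, and lox/lox replicate 2 was the lowest library. The log2 difference was 0.07 (standard error 0.0996, limma adjusted p = 0.971) and the fold interval ran from 0.896 to 1.23. Their relative Gata5, which was not among the 8, had 97.6 ± 9.75 CPM in the controls and 96.8 ± 9.87 CPM in I-KO mice, while the blood cell factors Gata2 and Gata3 had group means between 0.87 and 1.59 CPM.

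Cdx1, on chromosome 18 from 61018862 to 61036199, varied least of the 8 factors. Its values were 80.4, 82.7 and 75.4 CPM in the control mice, and 74.4, 87.1, 75.1 and 81.3 CPM in the I-KO mice. Both the lowest and the highest value came from I-KO mice, and the group means were 79.5 ± 3.73 CPM and 79.5 ± 5.95 CPM. The log2 difference was -0.0025 (standard error 0.088, limma adjusted p = 0.999), with a fold interval of 0.870 to 1.15, and 19.8% of tested genes had a smaller residual SD. For Cdx2, the factor that keeps intestinal fate, controls had 158.6, 159.8 and 148.3 CPM and I-KO mice 175.4, 160.6, 184.3 and 153.9 CPM. In 3 of 4 I-KO libraries Cdx2 was above every control, but I-KO replicate 2 was above the highest control by under 1 CPM and replicate 4 was within the control range. Means were 156 ± 6.33 and 169 ± 13.8 CPM, a log2 difference of 0.11 (standard error 0.090, limma adjusted p = 0.954), with a fold interval from 0.939 to 1.24.

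Klf4, of differentiated cells, and Klf5, of dividing crypt cells, varied more between mice. Klf4 was at 441.4, 370.1 and 323.9 CPM in the controls and at 433.5, 368.0, 533.5 and 359.3 CPM in I-KO. A single mouse, I-KO replicate 3, lay above all controls. The means of 378 ± 59.2 and 424 ± 80.4 CPM gave a log2 difference of 0.16 (standard error 0.16, limma adjusted p = 0.954) and a fold interval of 0.869 to 1.43. Klf5 was at 56.1, 56.8 and 72.3 CPM in the controls, and at 50.5, 63.4, 49.7 and 78.5 CPM in I-KO. Its highest and lowest libraries were both I-KO, replicates 4 and 3, and replicate 3 was at the same time the highest for Klf4. The log2 difference was -0.04 (standard error 0.17, limma adjusted p = 0.988), with a fold interval from 0.744 to 1.27. Residual SDs were 0.248 for Klf4 and 0.270 for Klf5, against a median of 0.144 over tested genes. Both fold intervals take in a rise as well as a fall, so neither direction was settled with 3 and 4 mice.

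Elf3, the ETS factor of enterocyte maturation, was the most abundant of the 8 in CPM, and 98.1% of tested genes had a lower mean. Controls had 531.8, 574.7 and 439.3 CPM, and I-KO mice 484.2, 545.4, 499.2 and 385.8 CPM. I-KO replicate 4 was the lowest library and lox/lox replicate 2 the highest, with the other values interleaved. Means were 515 ± 69.2 CPM and 479 ± 67.2 CPM, a log2 difference of -0.11 (standard error 0.14, limma adjusted p = 0.963), and the fold interval ran from 0.747 to 1.15. Genes annotated as overlapping or antisense to Elf3 (Gm26642), Gata6 (1010001N08Rik) and Pdx1 (Plut) have no row in the table. The libraries were stranded, but use of the strand in counting is not given in the sources used here, so reads of such partners cannot be told apart from those of the factors.

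**Figure D2:**
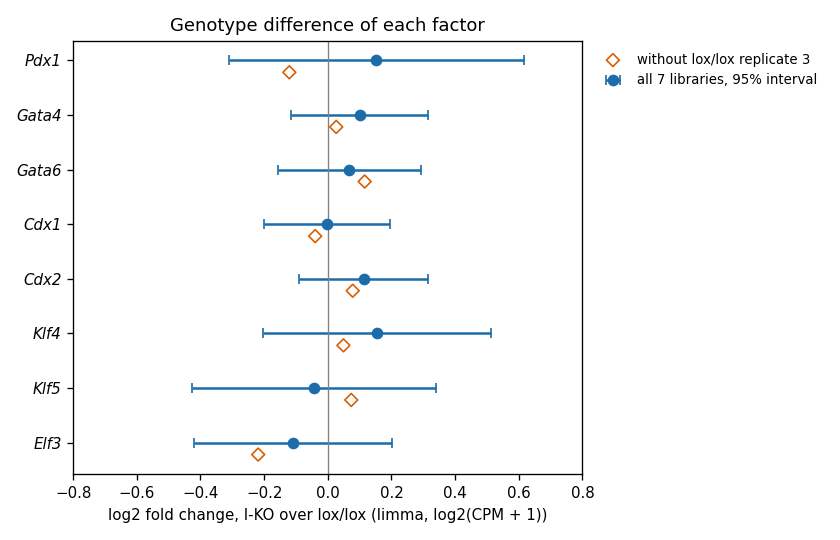
log2 fold change of each factor, I-KO over lox/lox, from limma on log2(CPM + 1) with 95% intervals (filled points, 7 libraries), and the estimate without lox/lox replicate 3 (open diamonds). Every interval includes 0, and Pdx1 goes from 0.15 to -0.12 and Klf5 from -0.04 to 0.07 when that library is left out.

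Divided by the length of their annotated exons, the factors could be placed in order. In CPM per exon kilobase the lox/lox means were 232 ± 31.2 for Elf3, 124 ± 19.4 for Klf4, 68.8 ± 2.80 for Cdx2, 45.4 ± 2.13 for Cdx1, 40.2 ± 3.72 for Gata4, 14.3 ± 1.54 for Gata6, 11.9 ± 1.75 for Klf5 and 9.34 ± 2.92 for Pdx1 (SD, n = 3). The I-KO means stood in the same order, from 216 ± 30.3 for Elf3 to 10.1 ± 1.39 for Pdx1 (SD, n = 4). Within a library, Elf3 exceeded Klf4, Klf4 exceeded Cdx2, Cdx2 exceeded Cdx1 and Gata4 exceeded Gata6 in 7 of 7 mice. Cdx1 exceeded Gata4 in 6 of 7, Gata6 exceeded Klf5 in 6 of 7 and Klf5 exceeded Pdx1 in 5 of 7. The ranges over mice overlapped for Cdx1 and Gata4, Gata6 and Klf5, and Klf5 and Pdx1, and the order of these neighbours changed between mice. The differences between neighbours within mice were not tested. The lowest value of Elf3 (174.0, I-KO replicate 4) lay just under the highest of Klf4 (175.0, I-KO replicate 3), in another mouse. Transcripts shorter than the union of exons would raise the value of a gene on this scale.

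Ratios of a pair of factors within a library do not depend on how libraries were scaled, and 5 were compared by exact two-sided permutation tests. Cdx2 over Cdx1 was 1.97, 1.93 and 1.97 in lox/lox and 2.36, 1.84, 2.45 and 1.89 in I-KO. The 3 controls were nearly alike, and I-KO mice lay on both sides of them, with a log2 difference of 0.12 (exact permutation p = 0.429). Klf4 over Klf5 was 7.87, 6.51 and 4.48 in lox/lox and 8.59, 5.81, 10.7 and 4.58 in I-KO, a 2.39-fold range over the 7 mice, with a log2 difference of 0.20 (exact permutation p = 0.686). Pdx1 over Cdx2, the ParaHox neighbours, ranged from 0.0877 in lox/lox replicate 3 to 0.159 in I-KO replicate 2 (log2 difference 0.05, exact permutation p = 0.8286). Gata4 over Gata6 ranged from 1.43 to 1.97 (log2 difference 0.03, exact permutation p = 0.886), and Cdx2 over Gata4 from 0.907 to 1.06 (log2 difference 0.01, exact permutation p = 0.8286). All 5 adjusted p-values were 0.886, and groups overlapped in each ratio.

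**Figure D3:**
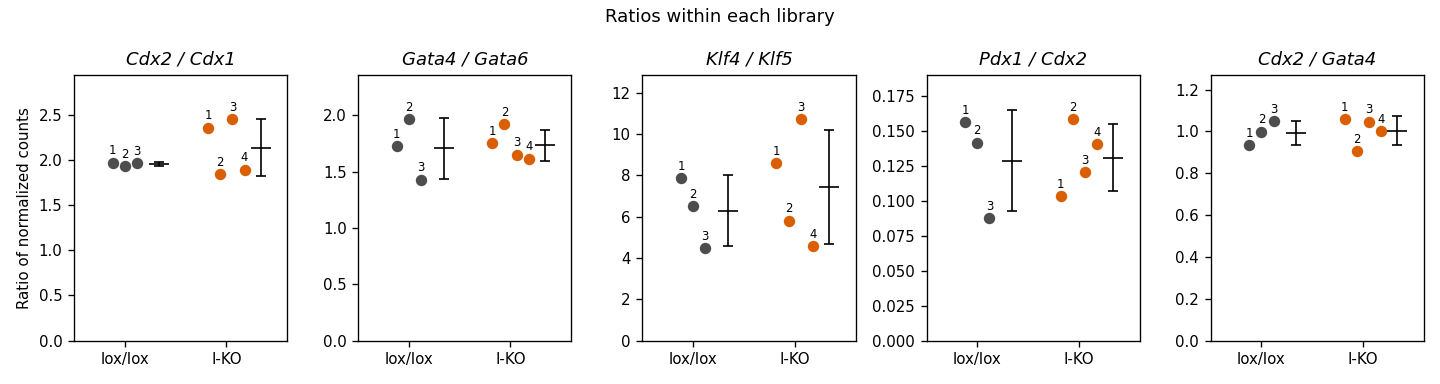
Ratio of normalized counts of the named pair of factors within each library (linear axes from 0), with mean ± SD per genotype (lox/lox n = 3, I-KO n = 4). Cdx2 over Cdx1 spans 1.93 to 1.97 in lox/lox and 1.84 to 2.45 in I-KO, and the groups overlap in all 5 panels.

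A single control moved several of these values, a pattern noticed after the values were seen. Lox/lox replicate 3 was the lowest library for 4 of the 8 factors, Pdx1, Gata4, Cdx2 and Klf4. Relative to the median of the other 6 mice it had 57.9% for Pdx1, 84.2% for Gata4, 92.6% for Cdx2 and 80.6% for Klf4, but 104% for Gata6 and 128% for Klf5. Elf3, at 85.2%, and Cdx1, at 93.2%, were below that median too, although other libraries were lower. Of 12 genes of the proximal small intestine, 5 were also lowest in this library. Among them, Cybrd1, a duodenal ferric reductase, had 16.9 CPM there against 56.1 to 78.5 CPM elsewhere, and Slc40a1, the iron exporter ferroportin, had 49.3 CPM against 103 to 162 CPM. Ada, adenosine deaminase, was at 53.7% of the median of the other libraries. Other proximal genes did not share this, since Fabp1, a fatty acid-binding protein, was at 147% and Lct, lactase, at 120%. Of 6 general epithelial markers, 5 were also lowest there, and the sum of all was 5873 CPM against 6575 to 7604 CPM in the other libraries. The share of all tested genes that were lowest in this library was not computed, so these counts have no background to be set against. The position along the duodenum from which each piece came is not given in the labels, and its part in these values was not tested. Without this library the log2 fold change of Pdx1 was -0.12 (standard error 0.14, limma adjusted p = 0.951), that of Klf4 0.05, Gata4 0.03 and Cdx2 0.08, and Elf3 moved to -0.22. Cybrd1 moved from 0.72 to 0.12, Slc40a1 from 0.43 to -0.05 and Ada from 0.24 to -0.05. Leaving out other libraries moved values too. Without I-KO replicate 3, Klf4 was 0.04 and Cdx2 0.07, both lower than without lox/lox replicate 3. Elf3 was -0.0088 without I-KO replicate 4, and Gata6 was -0.024 without lox/lox replicate 2.

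**Figure D4:**
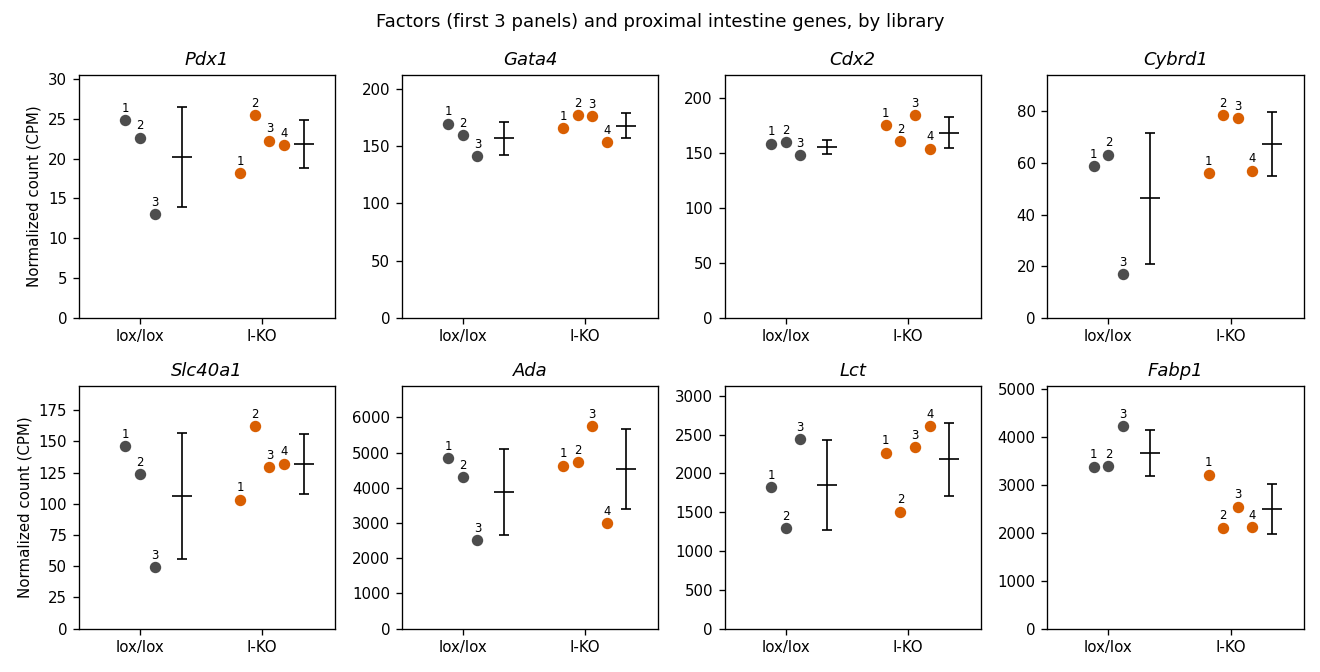
Normalized count (CPM, linear axes from 0) of 3 factors and 5 proximal intestine genes in each library, with mean ± SD (lox/lox n = 3, I-KO n = 4). The genes were chosen after their values were seen; lox/lox replicate 3 is the lowest library for Pdx1, Gata4, Cdx2, Cybrd1, Slc40a1 and Ada, and the highest for Fabp1 (4228 CPM).

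Genes that read out proximal or distal identity showed no call at the adjusted threshold. All 12 proximal genes were tested, 9 higher and 3 lower in the I-KO mice, and their median log2 fold change was 0.17 (-0.016 on leaving out lox/lox replicate 3, 0.056 on leaving out lox/lox replicate 2 and 0.11 on leaving out I-KO replicate 1). Bcmo1, the enzyme that splits β-carotene into retinal, had the largest positive value, with 10.5, 5.10 and 14.9 CPM in the controls and 54.9, 51.0, 15.9 and 54.4 CPM in I-KO. All I-KO libraries lay above all controls, although replicate 3 by 1 CPM, and the log2 difference of 1.97 (standard error 0.46) had a limma adjusted p = 0.686. Isx, the intestinal homeodomain factor known as a repressor of Bcmo1 and itself a Cdx2 target, had 153.2, 153.6 and 129.3 CPM in the controls and 96.9, 118.8, 115.9 and 85.4 CPM in I-KO. Its groups did not overlap either, and the log2 difference was -0.48 (standard error 0.13, limma unadjusted p = 0.00516, adjusted p = 0.791). Fabp1, a known target of both GATA factors and PPARα, was at 3380 to 4228 CPM in the controls and 2109 to 3215 CPM in I-KO, with a log2 difference of -0.57 (limma adjusted p = 0.822). Of 8 distal genes 6 were in the table and 4 were tested, 2 higher and 2 lower, from Gcg, the glucagon-like peptide precursor (log2 -0.39, limma adjusted p = 0.954), to Nts, neurotensin (0.24, limma adjusted p = 0.954). Of 11 genes of stomach and Brunner glands, 4 were in the table and only Pgc and Gkn3 were tested, both with group means under 2 CPM.

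Other factors with which the 8 share cells or families had no call either. Of 15 other epithelial factors, 4 were higher and 11 lower in I-KO, with a median of -0.07 (0.0041 on leaving out I-KO replicate 1, -0.024 on leaving out I-KO replicate 4, and -0.039 or -0.043 on leaving out lox/lox replicate 1 or 2), from Isx to Maf (0.16, limma adjusted p = 0.963). Of 26 relatives in the GATA, CDX, Krüppel-like and ETS families, 18 were tested, 13 higher and 5 lower, with a median of 0.07 that was 0.027 on leaving out I-KO replicate 4, 0.047 on leaving out I-KO replicate 3 and 0.042 on leaving out lox/lox replicate 2. Klf11 had 5.97, 5.23 and 6.60 CPM in the controls and 4.84, 4.87, 3.87 and 4.34 CPM in I-KO, a log2 difference of -0.34 (limma adjusted p = 0.833) without overlap. Klf13, singled out after its values were seen, also had groups without overlap, with 56.4 to 62.6 CPM in the controls and 65.5 to 73.1 CPM in I-KO (log2 0.19, limma adjusted p = 0.954). Gata3 had the largest positive value of these relatives, 0.19 (limma adjusted p = 0.954), near 1 CPM. Among 8 protein partners of the factors, 7 were tested, 4 higher and 3 lower. Their median of 0.02 ranged from -0.017 on leaving out lox/lox replicate 3 to 0.062 on leaving out lox/lox replicate 2, and was negative also when I-KO replicate 1 was left out (-0.0099), with column totals (-0.018) and with epithelial scaling (-0.034). Pbx3 had the lowest value (-0.04, limma adjusted p = 0.977). Of 10 factors of neighbouring organs 2 were in the table, among them Hoxb13, a factor of the distal colon, with 0.82 to 3.71 CPM over the 7 libraries.

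Target genes described for the factors and genes of enterocyte maturation were likewise without a call. Of 12 described targets, 5 were higher and 7 lower, with a median log2 fold change of -0.0070 that turned positive on leaving out lox/lox replicate 1 (0.061), I-KO replicate 1 (0.022) or I-KO replicate 3 (0.0027), from Fabp1 (-0.57) to Alpi, intestinal alkaline phosphatase (0.31, limma adjusted p = 0.954). Alpi ranged from 2008 to 3478 CPM in the controls and from 2928 to 3719 CPM in I-KO, and its difference was 0.11 without lox/lox replicate 3. Ccnd1, a cyclin of the G1 phase and a Klf5 target, had 49.5 to 52.3 CPM in the controls and 40.6 to 44.8 CPM in I-KO, a log2 difference of -0.28 (limma adjusted p = 0.791). Of 8 maturation genes, 6 were higher and 2 lower with a median of 0.13, and Fabp2, the intestinal fatty acid-binding protein, had the lowest value (-0.26, limma adjusted p = 0.954). Ccnd1 was singled out after its values were seen.

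Markers of the tissue's cell types were read beside these values. The 6 epithelial markers had a median log2 fold change of 0.06 (-0.0047 without lox/lox replicate 3), from Krt19 (-0.02) to Krt8 (0.15). All 7 smooth muscle and fibroblast markers were higher in I-KO, with a median of 0.19 (0.11 on leaving out lox/lox replicate 3, 0.12 on leaving out lox/lox replicate 1), from Myh11 (0.08) to Col3a1 (0.41, limma adjusted p = 0.887), and summed to 1150 to 1350 CPM in the controls and 1201 to 1612 CPM in I-KO. The 3 endothelial markers had values between 0.13 (Pecam1) and 0.14 (Kdr), and their sum of 95.7 CPM in I-KO replicate 1 stood above 64.7 to 80.1 CPM in the other libraries. Of 6 leukocyte markers 3 were higher and 3 lower, with the lowest value for Igj (-0.21), and their sums overlapped widely, at 3184 to 4486 CPM and 2670 to 4315 CPM. Of 11 acinar markers 3 were tested, among them Pnliprp1 (0.65) and Ctrl (0.10), both carried by I-KO replicate 1. The part of these contents in the values of the factors was not tested. Scaled to the epithelial markers of each library, 0 of the 8 factors had an adjusted p under 0.05 by limma.

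**Figure D5:**
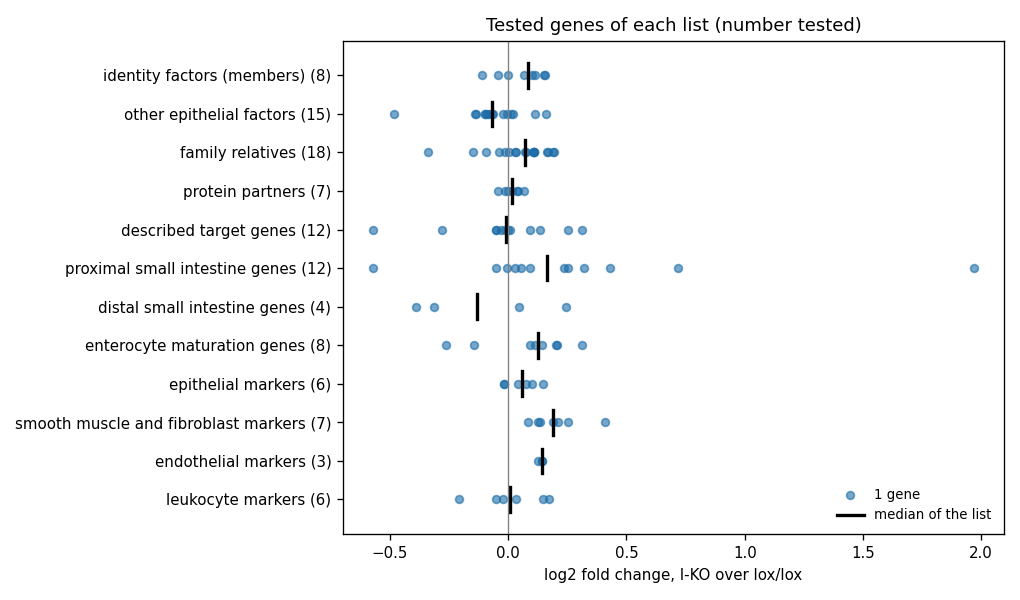
log2 fold change, I-KO over lox/lox, from limma on log2(CPM + 1), of each tested gene (points) of 12 gene lists, with the median of each list (black bars) and the number tested in brackets. The 8 identity factors lie between -0.11 and 0.16 with a median of 0.08, and the proximal genes between -0.57 (Fabp1) and 1.97 (Bcmo1).

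Over the 7 libraries, with each gene's log2 values centred and scaled, the most similar pair among the 8 was Cdx2 and Klf4, with a root mean square difference of 0.429, followed by Pdx1 and Gata4 with 0.583. The least similar were Cdx2 and Klf5 (1.78) and Klf4 and Klf5 (1.76). The paralogues were not close, as Cdx1 and Cdx2 had 1.55 and Gata4 and Gata6 had 1.23. Among the 13398 other tested genes, the profile nearest to Pdx1 was that of Ncoa4, a ferritin receptor, with a difference of 0.149. Ncoa4 had 467, 422 and 283 CPM in the controls and 345, 478, 443 and 431 CPM in I-KO, so it shared the low value in lox/lox replicate 3. The nearest profile was Nudt14 for Gata4 (0.133), Sema6a for Gata6 (0.182), Tmprss2 for Cdx1 (0.182), Ankrd54 for Cdx2 (0.125), Dpep1 for Klf4 (0.105), B230219D22Rik for Klf5 (0.177) and Sec11c for Elf3 (0.160). With 7 points and this many genes, such closeness is a description only.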

How the data were processed

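RNA of 7 duodena (3 lox/lox and 4 I-KO mice) was sequenced from stranded mRNA libraries as 100-base single reads. The submitters' processing notes name FastQC 0.11.2, TopHat2 2.0.13, Picard 1.80, HTSeq 0.6.1, edgeR and the mm10 genome, and the options of counting are not given in the sources used here. The authors deposited 1 table of signal values, counts scaled to an adjusted library size (CPM), to 2 decimals. Column totals were 969589 to 1098618. Values of up to 20 reads lay within the rounding of 0.005 of a multiple of the value of 1 read, 0.0393 to 0.0530 CPM, from which reads per library and per gene were computed. Replicates differed by more than sampling noise. Chi-square per degree of freedom was 13.9 to 30.45 for pairs of lox/lox libraries and 40.03 to 78.49 for pairs of I-KO libraries.

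Genotypes came from the labels. The 13399 genes whose value exceeded 1 in 3 or more libraries entered a limma fit (version 3.58.1, R version 4.3.3) on log2(value + 1), in which genotype was the single term. Two-sided p-values were adjusted after Benjamini and Hochberg, and 0.05 was the threshold. On this scale the change of low genes is understated. The fit was tested on simulated data. Single factors and 5 ratios were compared by exact permutation tests. These tests set the difference between the group means against the spread between the sampled mice.

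The 8 factors and the gene lists were chosen with earlier results of these data known, and the motifs after the table had been opened. Named were the 8 factors, Ppara, list genes past the threshold, the tested gene with the highest and the one with the lowest log2 fold change of each list, markers of tissue content and the nearest profile of each factor, and names outside this rule are given as chosen after their values were seen. Some results that this rule names are not reported here. Of the list genes, 2 were matched by older symbols (Bco1 as Bcmo1, Jchain as Igj). Positions are from GENCODE M21 (GRCm38), promoters from RefSeq (GRCm38.p6). Alternatives were other scalings, filters, pseudocounts and limma settings, the replicate number as a block, unadjusted p, and libraries left out. Other steps used Python 3.11.15 with pandas 2.3.3 and numpy 2.4.6, and plots used matplotlib 3.10.9.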

Additional observations from a re-analysis of the deposited data

Results flagged for a closer look

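In the 4 I-KO mice, 7 of 45 quantities searched had 1 library apart from the other 3, by the gap to the nearest library over the range of the group (Dixon's criterion for 4 values). Chance gives about 1 in 20, or 2.25, but the quantities searched were not separate. Pnliprp1 and Ctrl are part of the acinar sum, and Pecam1 is part of the endothelial sum. Of the 7, all but Bcmo1 concerned the same library, I-KO replicate 1, so the 7 cannot be read as an excess over 2.25. None of the 8 factors or 5 ratios was among the 7. In I-KO replicate 1 the acinar sum (gap 0.954), Pnliprp1 (0.98) and Ctrl (0.952) stood above the other I-KO mice, as did the endothelial sum (0.888), the endothelial marker Pecam1 (0.854) and the smooth muscle myosin Myh11 (0.846). Bcmo1 in I-KO replicate 3 stood below the other I-KO mice (gap 0.9, 15.9 CPM against 51.0 to 54.9 CPM). The controls, of 3 libraries, are too few for this search.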

How the results depend on the processing

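By limma, 0 of the 8 factors passed the adjusted threshold in each of the 16 alternatives that used it, and 0 passed at an unadjusted p under 0.05. The smallest adjusted p of any factor over the alternatives was 0.695, for Cdx2. Over all tested genes 4 passed, against 9 with an intensity trend and robust fit, 12 with sample quality weights, 635 at an unadjusted p under 0.05, and 3 to 5 with 1 library left out. Of the fold changes of the factors under the alternatives, 115 kept their sign and 13 reversed. Gata6 was -0.012 without both libraries with acinar genes (lox/lox replicate 2 and I-KO replicate 1), Cdx1 was 0.057 there and 0.015 with sample weights, and Klf5 was 0.033 with sample weights. The ratio of Cdx2 to Gata4 was -0.010 on the log2 scale without both libraries. With 1 library left out the log2 fold changes were -0.12 to 0.32 for Pdx1, 0.03 to 0.16 for Gata4, -0.024 to 0.12 for Gata6, -0.047 to 0.028 for Cdx1, 0.07 to 0.15 for Cdx2, 0.04 to 0.27 for Klf4, -0.17 to 0.074 for Klf5 and -0.22 to -0.0088 for Elf3. The log2 differences of the ratios were then 0.05 to 0.18 for Cdx2 over Cdx1, -0.090 to 0.14 for Gata4 over Gata6, -0.025 to 0.41 for Klf4 over Klf5, -0.21 to 0.21 for Pdx1 over Cdx2 and -0.032 to 0.060 for Cdx2 over Gata4. The causes of the reversals were not tested.

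With the replicate number as a block, 3 genes and 0 of the factors passed. Same-numbered libraries correlated by -0.0141, 0.184 and -0.00923 in their deviations from the group means, so the numbers were not taken as pairs.

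The planned edgeR and DESeq2 tests on recovered reads were not run, because fewer than 95% of low values lay within 0.1 of a step in 5 of 7 libraries. With steps of 0.0393 to 0.0530 CPM this limit is close to the rounding of 0.005, which alone can exceed it where steps are small. In each library 100% of the low values lay within the rounding, so the limit does not show that reads were wrongly recovered. Depth was not the limit, since counting error was at most 5.50% of a value, and the spread among 3 and 4 mice sets the intervals.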
